A study of Arabidopsis thaliana with 12 samples.

Results

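The genes described here encode the enzymes and regulators of tetrapyrrole synthesis in Arabidopsis thaliana, the plastid pathway that ends in chlorophyll and heme. They are a list of 30 locus tags, drawn up by function out of 27444 protein-coding genes, and hold the enzymes from HEMA1 to CAO, the POR genes, the ferrochelatases, the heme oxygenase HO1, the regulators FLU and GUN4 and the transcription factors GLK1 and GLK2. Of the 30, 26 had enough values to enter the statistical fit of 17250 genes, and the other 4 are described from their loci. RNA was sequenced from whole seedlings aged 14 days in 4 groups of 3 biological replicates: plants of the wild type (WT), mutants of 1 gene, val1 or val2, and the double mutant val1 val2. The proteins VAL1 and VAL2 bind DNA through a B3 domain and are known to repress seed maturation genes once a seed has germinated. All groups grew on plates with 1% sucrose under a day of 16 h light at 22 °C. Stratification, the cold treatment of seed, lasted 3 days at 4 °C in each group. The medium was set with 0.6% agar throughout. The alleles, the wild-type strain and the hour of harvest are not given in the sources used here. Each library came from about 100 mg of seedlings, so its values are averages over many plants and all their organs.

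Tetrapyrrole synthesis starts from glutamate and passes through 5-aminolevulinate, several porphyrin intermediates and protoporphyrin. There the route splits: magnesium is inserted on the way to chlorophyll and iron on the way to heme. The intermediates are photosensitizers, so plants hold the first step in check through FLU and heme and switch the green branch on with light. GLK1 and GLK2 are known to activate genes of chlorophyll synthesis and of the photosynthetic apparatus in leaves. The enzyme of a step is often encoded by a gene used mainly in green tissue and a second gene used also in roots and other non-green tissue, as is known for HEMA1 and HEMA2 and for the ferrochelatases FC2 and FC1.

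Values are FPKM, fragments scaled to transcript length and to the mapped fragments of the library, so levels can be compared between genes; a gene's value is the FPKM of its assembled locus multiplied by the fraction of the gene under that locus. A gene is called changed when limma's adjusted p (Benjamini-Hochberg over all genes fitted, two-sided) is under 0.05 on log2(FPKM + 1). The 12 libraries listed 19164 to 20293 assembled loci each. From the confidence intervals of the loci, the median gene of the list rested on about 1121 to 1439 fragments in the WT and single mutant libraries and on 464 to 913 in the double mutant, with counting error only. The assembled loci over VAL1 and VAL2 were set beside the genotype labels, and not every mutant library differed from WT there. The locus over VAL1 was unbroken in val1 replicate 1 and val1 val2 replicate 3, as in WT, while in the remaining 4 val1 and val1 val2 libraries its main locus began only at position 12982815 of chromosome 2 (TAIR10). The locus over VAL2 was unbroken in val2 replicate 1 and in val1 val2 replicates 2 and 3. Results are therefore also given without these libraries. The VAL1 locus was also broken in val2 replicate 1, between positions 12984148 and 12984259, so the assembly alone does not settle a genotype. Green tissue markers summed to 19660 to 22010 FPKM in WT and 3027 to 9733 in val1 val2, over 10 markers with a value in every library, none of them at 0. The 9 such seed markers had no assigned locus in any WT library, which counts as 0, and summed to 28590 to 55540 in val1 val2. Their sums were 62.23 to 67.65 in val1 and 4.418 to 5.793 in val2, over every library of each group. In whole seedlings, fewer green cells and less RNA of a gene per green cell cannot be told apart.

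In the double mutant most of the pathway was lower than in WT. Of 26 genes, 22 fell, 1 rose and 3 were not called, where 59.0% of all genes were called in this comparison, 34.4% lower and 24.6% higher. Of the 22, 17 fell at least 2-fold, against 16.8% of all genes. The median log2 change of the 26 genes was -1.33, beside -0.14 over all genes. The gene that rose was FC1, a ferrochelatase, and the 3 not called were HEMA1, HEMA2 and CAO. Without val1 replicate 1 and val1 val2 replicate 3, 22 of 25 genes were lower and 0 higher. Without val2 replicate 1 and val1 val2 replicates 2 and 3, which leaves 1 double mutant library whose spread is taken from the other groups, the counts were again 22 of 25 lower and 0 higher.

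**Figure D1:**
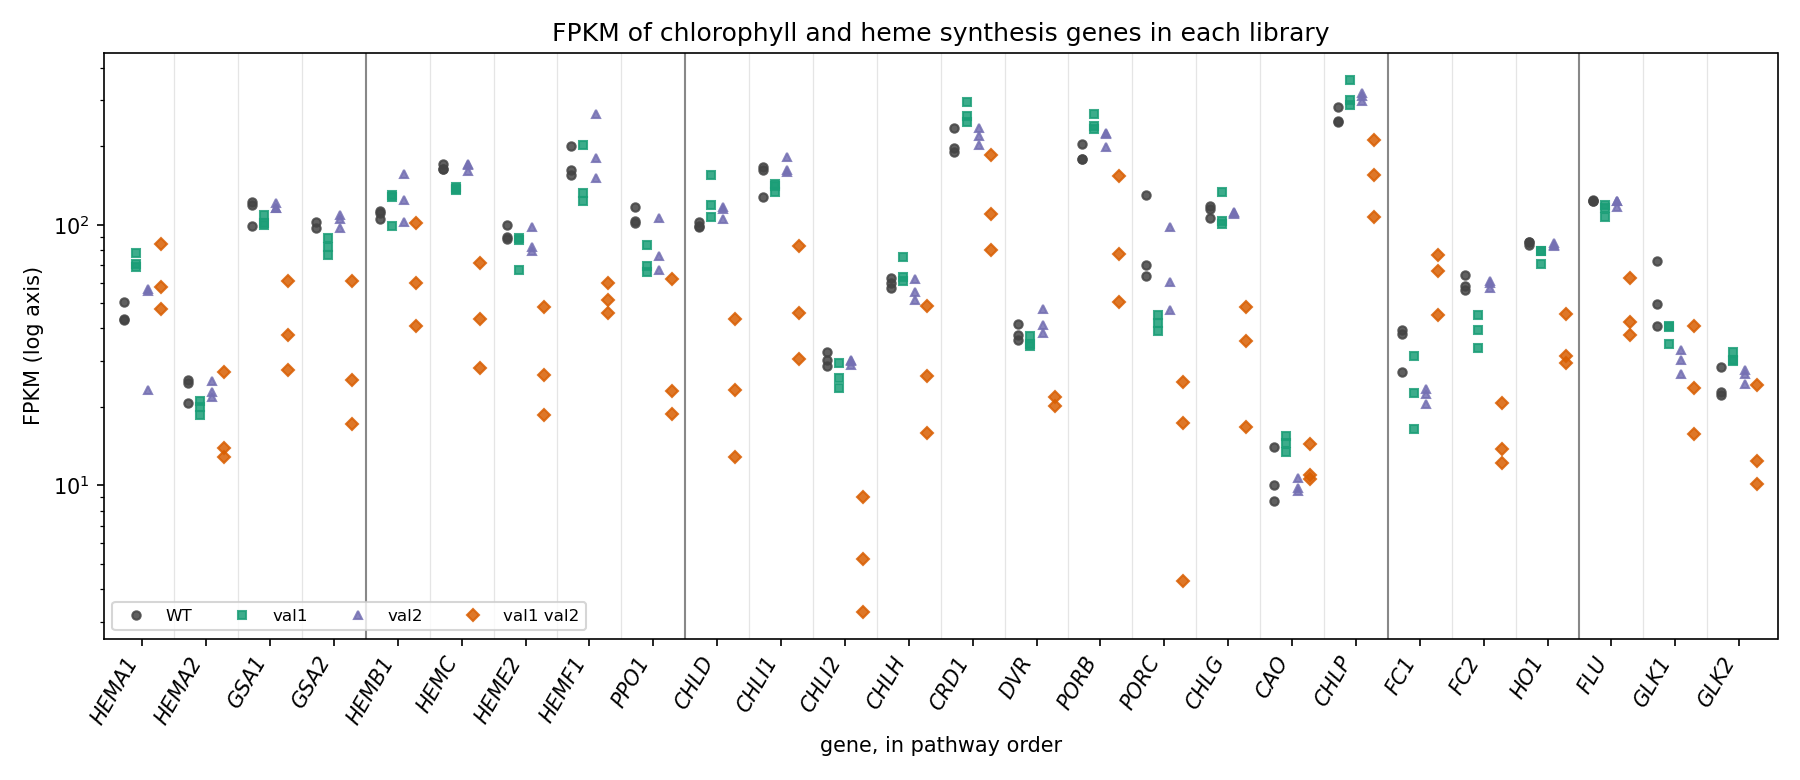
FPKM (log axis) of the 26 genes with enough values in each of the 12 libraries, in pathway order; each point is 1 library and vertical grey lines separate the parts of the pathway. The val1 val2 points lie below those of WT for most genes, as for CHLI2 at 3.27, 5.199 and 8.99 against 30.3, 32.4 and 28.6 FPKM, but above them for FC1 and among them for CAO.

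The genes of the first committed step were not called in the double mutant. HEMA1 (AT1G58290) and HEMA2 (AT1G09940) encode glutamyl-tRNA reductase, the rate-controlling enzyme of the pathway. Values follow the order of replicates 1 to 3 throughout. HEMA1 had 43.3, 43.1 and 50.4 FPKM in WT, 70.99, 68.6 and 77.6 in val1, 56.6, 23.2 and 55.5 in val2 and 47.5, 57.7 and 84.4 in val1 val2. The double mutant libraries reached from the WT range to above it, and the change was not called (log2 change 0.42, SE 0.31, limma adjusted p = 0.256). The value of 23.2 in val2 replicate 2 came from a shorter locus whose confidence interval was unbounded in practice, from 0 to 197684 FPKM. With that value left missing the adjusted p was 0.0703. HEMA2 had a mean of 23.6 ± 2.56 FPKM in WT (SD, n = 3) and 18.00 ± 8.04 in val1 val2, with double mutant values of 12.8, 13.9 and 27.3. Its change was not called either (log2 change -0.45, SE 0.23, limma adjusted p = 0.112). Replicate 3 of the double mutant lay above all WT values of HEMA2, and without it the gene was called lower (log2 change -0.77, adjusted p = 0.000251).

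GSA1 (AT5G63570) and GSA2 (AT3G48730), which encode the aminotransferase that makes 5-aminolevulinate, both fell. GSA1 had 98.5, 122 and 119 FPKM in WT, 109, 101 and 99.97 in val1, 116, 121 and 116 in val2 and 27.7, 37.8 and 60.8 in val1 val2. All 3 double mutant values lay below every other library (log2 change -1.47, SE 0.22, limma adjusted p = 0.000218). GSA2 had 103 and 97.4 FPKM in WT replicates 1 and 3, 81.8, 76.3 and 89.3 in val1, 96.7, 109 and 105 in val2 and 17.1, 25.3 and 60.6 in val1 val2. In WT replicate 2 its locus was merged with a neighbouring gene and gave no value. The double mutant was again below all other libraries (log2 change -1.71, SE 0.39, limma adjusted p = 0.00398), with replicate 3 more than 2-fold above replicates 1 and 2.

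Between 5-aminolevulinate and protoporphyrin, 5 of 5 genes in the fit fell in the double mutant, beside 34.4% of all genes. HEMC (AT5G08280), porphobilinogen deaminase, had 163, 171 and 163 FPKM in WT, 136, 137 and 139 in val1, 160.4, 171 and 169 in val2 and 28.3, 43.3 and 71.1 in val1 val2. Its WT values were tight and far above those of the double mutant (log2 change -1.88, SE 0.24, limma adjusted p = 7.73e-05). HEME2 (AT2G40490), uroporphyrinogen decarboxylase, had 99.5, 88.2 and 90.01 FPKM in WT, 87.3, 66.98 and 88.9 in val1, 81.9, 79.3 and 97.7 in val2 and 18.7, 26.6 and 48.1 in val1 val2. No double mutant library reached the lowest value of another group (log2 change -1.65, SE 0.27, limma adjusted p = 0.000378). HEMF1 (AT1G03475), coproporphyrinogen oxidase, had 162, 200.3 and 155 FPKM in WT, 202, 132 and 123 in val1, 180.2, 151 and 265 in val2 and 51.4, 45.7 and 59.5 in val1 val2. It varied widely among the single mutant libraries, from 123 to 265 FPKM, but little within val1 val2, and the groups did not overlap (log2 change -1.70, SE 0.24, limma adjusted p = 0.000118).

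PPO1 (AT4G01690) and HEMB1 (AT1G69740) stand at the end and the start of this stretch. PPO1, protoporphyrinogen oxidase, the last enzyme shared by both branches, had 117, 104 and 101 FPKM in WT, 69.5, 83.8 and 65.8 in val1, 67.1, 76.01 and 106 in val2 and 18.8, 22.97 and 61.9 in val1 val2. Its double mutant values were all below those of the other groups (log2 change -1.80, SE 0.36, limma adjusted p = 0.0013). HEMB1, 5-aminolevulinate dehydratase, fell less, from 109.8 ± 3.69 to 67.3 ± 30.8 FPKM in val1 val2 (log2 change -0.79, SE 0.28, limma adjusted p = 0.0291). The call of HEMB1 was lost under 7 of 28 alternatives, among them leaving out any 1 WT library (adjusted p 0.055 to 0.0677), val1 val2 replicate 1 (0.111) or val1 val2 replicate 2 (0.0754), and with the replicate number as a block (0.0507). HEME1 (AT3G14930), the other uroporphyrinogen decarboxylase gene, was outside the fit because its locus was merged with a neighbour in WT replicates 2 and 3. It had 146 FPKM in the remaining WT library, 63.1, 93.7 and 110.5 in val1, 124, 109 and 105 in val2 and 19.98, 27.6 and 47.7 in val1 val2, the last again the lowest.

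In the chlorophyll branch 10 of 11 fitted genes fell in val1 val2, beside 34.4% of all genes. Magnesium chelatase, which commits protoporphyrin to chlorophyll, is built from subunits D, I and H. CHLD (AT1G08520) had 98.1, 99.2 and 102 FPKM in WT, 107, 154 and 119 in val1, 116, 105 and 115 in val2 and 12.8, 23.1 and 43.3 in val1 val2. The double mutant libraries held between 12.8 and 43.3 FPKM, all below the 98.1 of the lowest other library (log2 change -2.04, SE 0.32, limma adjusted p = 0.000306). CHLI2 (AT5G45930), the lesser gene of subunit I, had 30.3, 32.4 and 28.6 FPKM in WT, 25.7, 23.6 and 29.4 in val1, 29.01, 30.1 and 30.2 in val2 and 3.27, 5.199 and 8.99 in val1 val2. Its mean in val1 val2 was 19.1% of the WT mean (log2 change -2.29, SE 0.24, limma adjusted p = 1.64e-05). CHLI1 (AT4G18480), the main gene of this subunit, had 127, 166 and 163 FPKM in WT, 143, 133 and 141 in val1, 159.5, 182 and 163 in val2 and 30.6, 45.7 and 82.7 in val1 val2. It fell as well, with no overlap between val1 val2 and the rest (log2 change -1.61, SE 0.28, limma adjusted p = 0.000512). As CHLI1 and CHLI2 are similar in sequence, the assembly could have shared fragments between them.

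CHLH (AT5G13630), the porphyrin-binding subunit also known as GUN5, had 57.05, 59.7 and 62.3 FPKM in WT, 60.9, 63.1 and 75.1 in val1, 51.4, 55.03 and 61.8 in val2 and 15.9, 26.2 and 48.7 in val1 val2. The double mutant lay below all other libraries, but replicate 3 came within 3 FPKM of the lowest val2 value (log2 change -1.09, SE 0.30, limma adjusted p = 0.00847). GUN4 (AT3G59400), which stimulates the chelatase, was given no value by the rule that assigned loci to genes. When loci were given to the gene of largest mutual overlap, an alternative chosen after seeing the data, GUN4 had 29.3, 29.2 and 35.5 FPKM in WT, 47.6, 28.25 and 46.6 in val1, 33.4, 42.2 and 36.3 in val2 and 7.64, 11.7 and 25.7 in val1 val2. All double mutant values were below the rest (log2 change -1.17, SE 0.36, limma adjusted p = 0.0191).

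The steps from magnesium protoporphyrin to protochlorophyllide had smaller estimates in the genes that could be tested. CRD1 (AT3G56940), a subunit of the cyclase that closes the fifth ring, went from 207 ± 23.9 to 125 ± 53.7 FPKM in val1 val2 (log2 change -0.80, SE 0.24, limma adjusted p = 0.0149), a call lost with only the compared groups in the fit (adjusted p = 0.0658) or without WT replicate 2 (0.053) or val1 val2 replicate 1 (0.0504). DVR (AT5G18660), the divinyl reductase, went from 38.5 ± 2.79 to 20.9 ± 1.18 FPKM in val1 val2 (log2 change -0.85, SE 0.12, limma adjusted p = 0.00022), with n = 2 in val1 val2 because its locus in replicate 1 ran on into a neighbour. That joint locus had 11.3 FPKM, against 20.9 and 22.8 for the DVR loci of replicates 2 and 3. Replicate 1 was the lowest for 24 of the 25 genes with 3 double mutant values, so the DVR estimate is not on equal terms with theirs. The methyltransferase gene CHLM (AT4G25080) was outside the fit because its locus was merged with a neighbour in 4 libraries. It had 185, 209.7 and 214 FPKM in WT, 234 in val1 replicate 1, 238 and 235 in val2 replicates 2 and 3 and 49.2 and 90.4 in val1 val2 replicates 2 and 3. These double mutant values were below the lowest WT value and were not tested.

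Protochlorophyllide oxidoreductase, the light-driven enzyme of greening, is encoded by PORA (AT5G54190), PORB (AT4G27440) and PORC (AT1G03630). PORC, known from light-grown leaves, had the largest fall among the 26 fitted genes; its assembled loci lay between positions 907065 and 909637 of chromosome 1 (TAIR10). It had 69.8, 63.6 and 129.8 FPKM in WT, 41.9, 38.99 and 44.9 in val1, 60.4, 98.3 and 47.2 in val2 and 4.31, 24.8 and 17.4 in val1 val2. WT replicate 3 and val1 val2 replicate 1 were the extremes of their groups, and the groups did not overlap (log2 change -2.63, SE 0.51, limma adjusted p = 0.00118). Without val1 val2 replicate 1 the log2 change of PORC was -1.95, with a fold 1.60 times smaller, and CHLI2 at -1.996 had the larger fall. PORB had 179, 178 and 203 FPKM in WT, 239.9, 233 and 267 in val1, 199, 225 and 224 in val2 and 50.6, 77.2 and 154 in val1 val2. Its double mutant values spread 3-fold and stayed under the WT range (log2 change -1.13, SE 0.30, limma adjusted p = 0.00769). PORA, known from dark-grown seedlings, had 0.499 FPKM in val1 replicate 2 and no assigned locus in the other 11 libraries, where it counts as 0. A locus of 11.3 FPKM in WT replicate 2 reached only the edge of the gene and was not assigned to it.

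The last enzymes of the branch moved unequally. CHLG (AT3G51820), chlorophyll synthase, which joins the ring to its tail, had 118, 115 and 106 FPKM in WT, 103, 100.4 and 134 in val1, 111, 110.1 and 112 in val2 and 16.7, 35.6 and 48.5 in val1 val2. It fell with no overlap between val1 val2 and the other groups (log2 change -1.84, SE 0.29, limma adjusted p = 0.000312). CHLP (AT1G74470), geranylgeranyl reductase, which makes the phytol tail, was the most abundant gene of the list in WT and went from 260.2 ± 19.9 to 158 ± 52.1 FPKM in val1 val2 (log2 change -0.77, SE 0.21, limma adjusted p = 0.00789). CAO (AT1G44446), which converts chlorophyll a to b, was the least abundant of the fitted genes in WT. It had 8.69, 9.99 and 14.1 FPKM in WT, 13.4, 14.6 and 15.4 in val1, 9.47, 10.7 and 9.74 in val2 and 10.6, 10.97 and 14.5 in val1 val2. Its WT and val1 val2 values overlapped, and no change was called (log2 change 0.14, SE 0.17, limma adjusted p = 0.501).

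**Figure D2:**
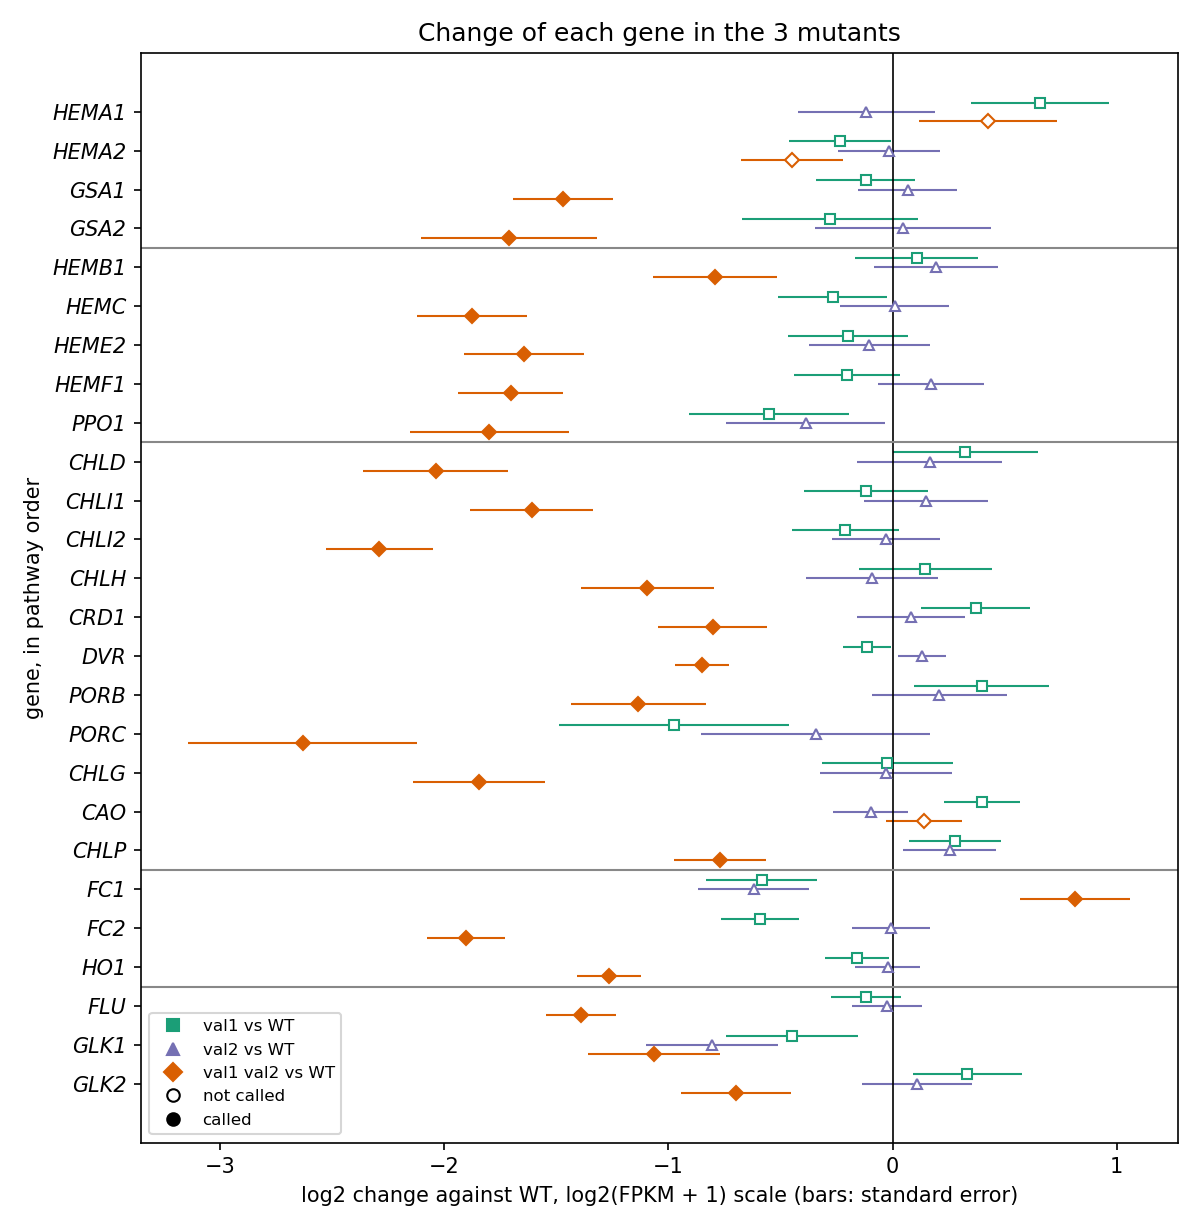
Log2 change of each of the 26 fitted genes against WT in val1, val2 and val1 val2, with standard errors as bars and filled symbols for called changes. All filled symbols belong to val1 val2; they reach from -2.63 for PORC to 0.81 for FC1, and HEMA1, HEMA2 and CAO are open.

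The heme branch split. FC1 (AT5G26030) and FC2 (AT2G30390) encode ferrochelatase, which inserts iron into protoporphyrin; FC2 is known as the gene of photosynthetic tissue, and FC1 is known from all organs and for its response to stress. FC2 had 56.1, 64.3 and 58.2 FPKM in WT, 33.6, 39.5 and 45.1 in val1, 59.7, 60.9 and 57.1 in val2 and 12.2, 13.8 and 20.6 in val1 val2. The double mutant lay below all other libraries, and the val1 values lay below WT and val2 (log2 change -1.91, SE 0.17, limma adjusted p = 6.09e-06). FC1 had 37.98, 39.4 and 27.3 FPKM in WT, 22.5, 16.4 and 31.3 in val1, 22.4, 20.5 and 23.4 in val2 and 45.1, 76.7 and 66.7 in val1 val2. The loci of FC1 lay between positions 9096428 and 9099022 of chromosome 5. Its double mutant libraries were the highest of all 12 (log2 change 0.81, SE 0.25, limma adjusted p = 0.0152). The rise of FC1 over WT was lost without WT replicate 3 (limma adjusted p = 0.0625) and without val1 val2 replicate 2 (0.0643). It was also lost without val1 replicate 1 and val1 val2 replicate 3 (0.0548). Without val2 replicate 1 and val1 val2 replicates 2 and 3 the log2 change of FC1 was 0.38. Its rises over val1 (log2 change 1.40, adjusted p = 0.000647) and over val2 (1.43, 0.000496) were called in all 28 alternatives. HO1 (AT2G26670), heme oxygenase, which opens heme to make the phytochrome chromophore, had 83.5, 86.2 and 86.2 FPKM in WT, 70.4, 79.4 and 79.4 in val1, 82.7, 85.2 and 83.9 in val2 and 29.6, 31.4 and 45.6 in val1 val2. It fell, and values were tight in the other groups (log2 change -1.27, SE 0.14, limma adjusted p = 2.9e-05).

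The regulators in the fit were lower too. FLU (AT3G14110), the brake on glutamyl-tRNA reductase in the dark, had 124, 123 and 124 FPKM in WT, 119, 107 and 116 in val1, 124, 117 and 123 in val2 and 37.7, 42.5 and 62.7 in val1 val2. The WT libraries differed by 1 FPKM, and the double mutant libraries were far below them (log2 change -1.39, SE 0.16, limma adjusted p = 2.81e-05). GLK1 (AT2G20570) had 49.8, 72.7 and 41.04 FPKM in WT, 40.7, 34.9 and 40.5 in val1, 26.7, 32.9 and 30.3 in val2 and 15.7, 23.7 and 40.7 in val1 val2. It was uneven within WT and within val1 val2, and double mutant replicate 3 came close to the lowest WT value; the change was called (log2 change -1.06, SE 0.29, limma adjusted p = 0.00955) but lost when only these groups entered the fit (adjusted p = 0.0505). GLK2 (AT5G44190) had 22.8, 22.1 and 28.4 FPKM in WT, 30.3, 30.01 and 32.4 in val1, 26.7, 24.5 and 27.8 in val2 and 10.1, 12.4 and 24.3 in val1 val2. Double mutant replicate 3 lay inside the WT range (log2 change -0.70, SE 0.24, limma adjusted p = 0.0296), and the call was lost with only the compared groups (adjusted p = 0.105) or without WT replicate 3 (0.0975), val1 val2 replicate 1 (0.116) or val1 val2 replicate 2 (0.0996).

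In the single mutants no gene of the pathway passed the test. In val1, 0 of 26 genes were called by limma, beside 3.9% of all genes, and 3 had an unadjusted p under 0.05: FC2 (log2 change -0.59, adjusted p = 0.1004), CAO (0.40, 0.251) and FC1 (-0.58, 0.251). The number under 0.05 depended on the fit, and was 2997 of 17250 over all genes in the main fit. It was 9 with only the compared groups (all genes 3939 of 16400) and 12 with library weights (4552 of 17250). Without val1 val2 replicate 3 it was 9 (3799 of 16110), and without WT replicate 1 it was 1 (2300 of 16690). FC2 was the closest to a call, at 33.6, 39.5 and 45.1 FPKM against 56.1, 64.3 and 58.2 in WT, with no overlap. Under 4 of 28 alternatives it was called, among them without val1 val2 replicate 3, which enters this comparison only through the shared spread (adjusted p = 0.0143). HEMA1 had a positive estimate, 0.66 (SE 0.31), with all val1 values above all WT values, and was called only when the fit was limited to the compared groups (adjusted p = 0.0183). In val2, 0 of 26 genes were called by limma, beside 4.45% of all genes. Beside 3127 of 17250 over all genes, 2 of the 26 had an unadjusted p under 0.05. These were GLK1 (log2 change -0.81, adjusted p = 0.169), at 26.7, 32.9 and 30.3 FPKM against 49.8, 72.7 and 41.04 in WT, and FC1 (-0.62, 0.209). The lower level of GLK1 was called without val1 val2 replicate 3 (0.0422) and with library weights (0.017). Over the 26 genes the median log2 change was -0.12 in val1 and -0.01 in val2.

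The double mutant was also compared with each single mutant, to ask what the loss of the second gene adds. Against val1, 21 of 26 genes were lower and FC1 higher, beside 58.4% of all genes called, 32.7% lower. Against val2 the counts were the same, 21 lower and 1 higher, beside 59.9% of all genes called, 34.9% lower. HEMA1, HEMA2, CAO and GLK1 were not called in either comparison. GLK1 had a log2 change of -0.62 against val1 (adjusted p = 0.0943) and -0.26 against val2 (0.47). Without val1 val2 replicate 3, GLK1 (limma adjusted p = 0.00532 and 0.0461) and HEMA2 (0.00256 and 0.000279) were called lower against val1 and val2. PORC lost its call against val1 with library weights (0.053) and CHLH against val2 with only the compared groups (0.061). HEMB1 lost its call against val1 without val1 replicate 1 (0.0519) or val1 val2 replicate 1 (0.0595), and GLK2 against val2 without val1 val2 replicate 1 (0.0572) or replicate 2 (0.0568). These comparisons and the one with WT share the double mutant libraries, so they are not independent.

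The interaction contrast tests whether the change in val1 val2 differs from the sum of the changes in val1 and val2. It was called for 20 of 26 genes, 19 of them below the sum and FC1 above it, beside 46.9% of all genes called, 25.4% below. CHLD was the farthest below: its single mutant changes of 0.33 and 0.17 add to 0.49, and its change in val1 val2 was -2.04 (interaction -2.53, SE 0.46, limma adjusted p = 0.00115). FC1 went the other way. Its estimates in val1 and val2 add to -1.20, and its change in val1 val2 was 0.81 (interaction 2.02, SE 0.35, limma adjusted p = 0.000898). The 6 genes not called were HEMA1, HEMA2, CAO, GLK1, PPO1 and PORC. Of these, GLK1 had an estimate of 0.19 (SE 0.42) and HEMA1 of -0.12 (SE 0.43). The interactions of CHLH, HEMB1 and GSA2 were lost under 14, 13 and 10 alternatives (adjusted p up to 0.0911, 0.0916 and 0.0896), most of them with 1 library left out, from any group for CHLH and from val1, val2 or val1 val2 for GSA2. Without val1 val2 replicate 3, PPO1 (log2 interaction -1.37, adjusted p = 0.001485) and HEMA2 (-0.52, 0.0177) were called, and without val1 val2 replicate 2 the call of GLK2 was lost (0.0501).

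**Figure D3:**
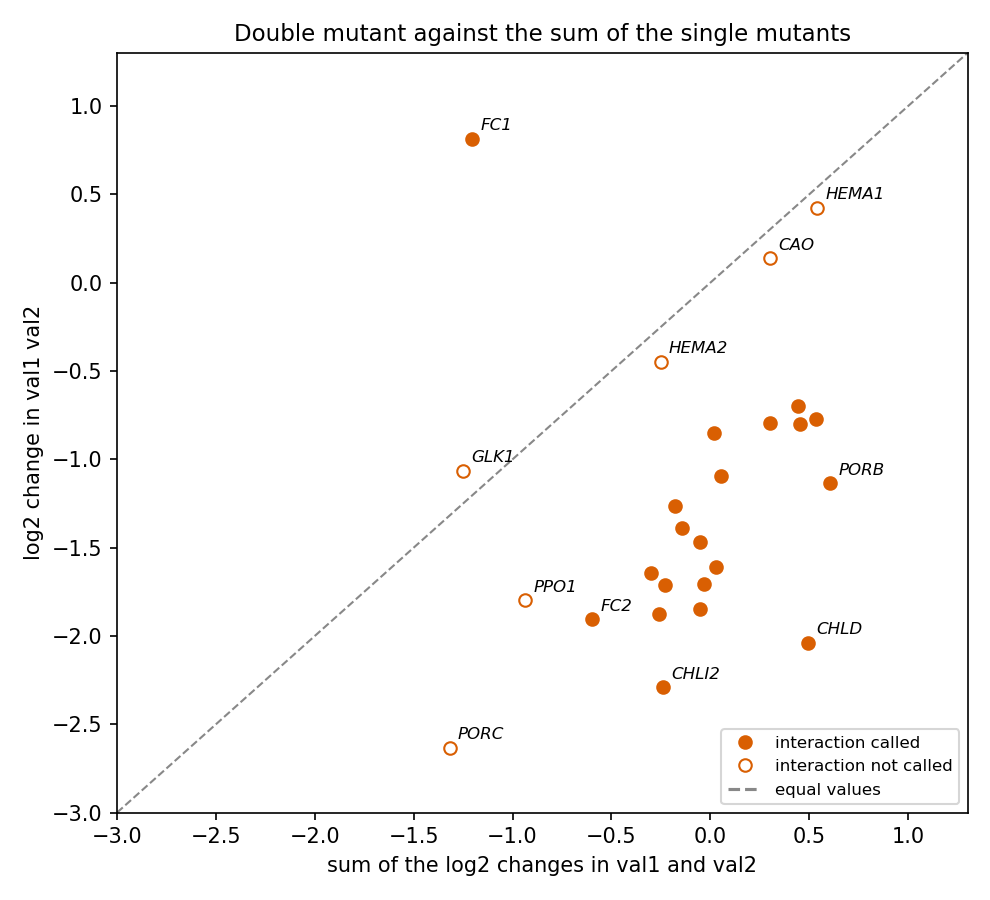
Log2 change in val1 val2 against WT (vertical axis) plotted on the sum of the log2 changes in val1 and val2 (horizontal axis), 1 point per fitted gene; the dashed line marks equal values and filled points a called interaction. Points called below the line include CHLD at 0.49 and -2.04, and FC1 stands above it at -1.20 and 0.81.

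The 3 double mutant libraries differed in how far the pathway had fallen. The median log2 difference of the 26 genes from the WT mean was -1.84 in replicate 1, -1.47 in replicate 2 and -0.79 in replicate 3. Of the 25 genes with 3 double mutant values, 24 were lowest in replicate 1 and 23 highest in replicate 3. HEMF1 and PORC did not follow this order, and FC1 was lowest in replicate 1 and highest in replicate 2. Over the 26 fitted genes the summed FPKM was 745 in replicate 1, 1068 in replicate 2 and 1670 in replicate 3, against 2457 to 2603 in WT. The green tissue markers had the same order of libraries, with medians of -2.90, -2.30 and -1.26 over 11 markers, and the all-gene medians were -0.17, -0.19 and -0.06. The part of green tissue in the fall of the pathway was not tested. The share of all genes with this order of libraries was not counted. Among the double mutant libraries, only replicate 3 had an unbroken locus over both VAL1 and VAL2, and replicate 1 had it over neither. A link between these loci and the order was not tested.

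**Figure D4:**
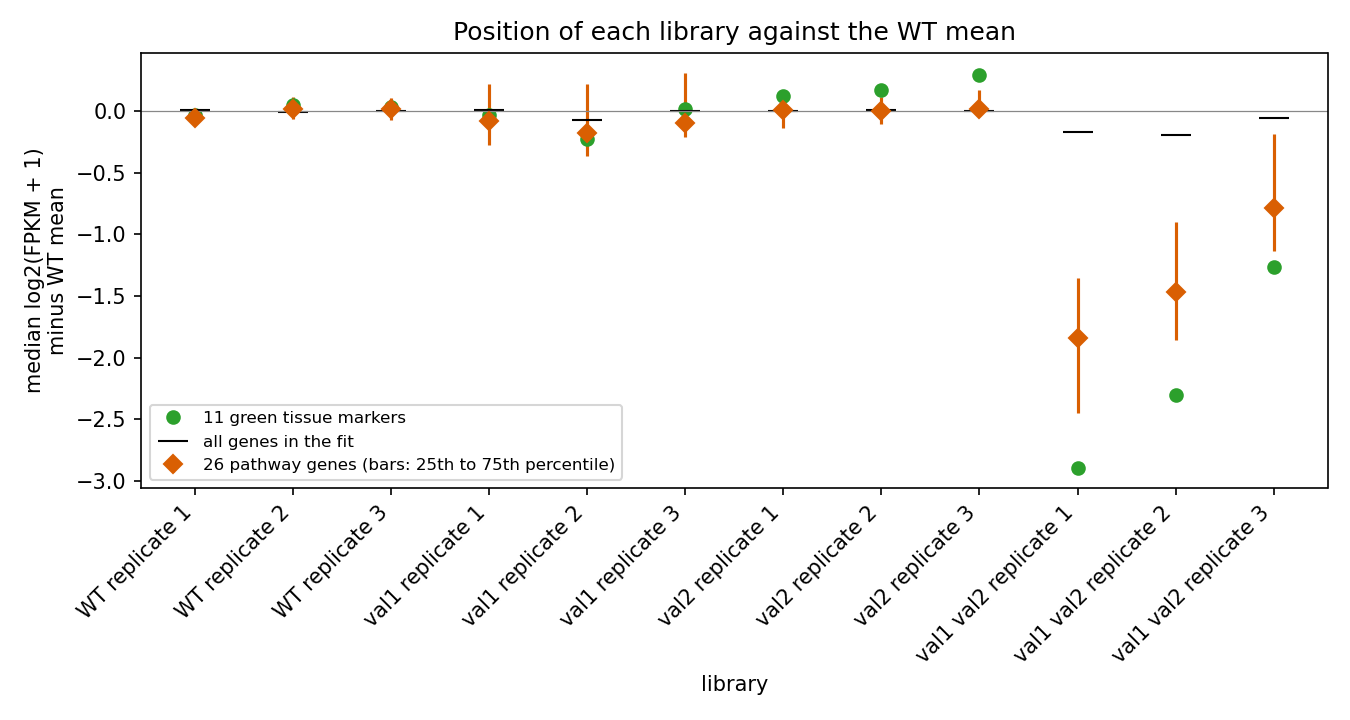
Median log2(FPKM + 1) of each library minus the WT mean, for the 26 pathway genes (diamonds; bars span the 25th to 75th percentile over genes), 11 green tissue markers (circles) and all genes in the fit (dashes). The pathway medians of the 9 WT and single mutant libraries lie between -0.18 and 0.01, and those of val1 val2 at -1.84, -1.47 and -0.79, with the green markers lower still.

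Where 2 genes serve a step, their balance was followed as a share of their summed FPKM. FC2 made up 63.2 ± 4.32% of ferrochelatase transcript in WT (SD, n = 3), 63.2 ± 6.53% in val1, 72.8 ± 1.99% in val2 and 20.03 ± 4.35% in val1 val2. By library the share was 59.7, 62.0 and 68.0% in WT and 21.2, 15.2 and 23.7% in val1 val2, so the groups did not overlap. The log2 ratio of FC2 to FC1 differed by -2.72 between val1 val2 and WT (exact two-sided permutation p = 0.1, the smallest that 3 against 3 libraries allow; 0.15 adjusted over 6 pairs). No pair could therefore pass the threshold.

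Balance also differed without overlap for HEMA1 and HEMA2, CHLI1 and CHLI2, and PORB and PORC, each at the same exact permutation p of 0.1. HEMA1 made up 65.9 ± 2.15% of its pair in WT and 78.3 ± 2.52% in val1 val2, and 78.45 ± 1.26% in val1. The share of CHLI1 was 83.2 ± 2.18% in WT and 90.1 ± 0.294% in val1 val2. With a pseudocount of 5 its difference in log2 ratio shrank from 0.68 to 0.21 (exact permutation p = 0.5). For PORB it was 68.9 ± 6.87% in WT and 85.9 ± 8.93% in val1 val2, and 85.45 ± 0.273% in the val1 libraries. GSA2 against GSA1 and GLK2 against GLK1 overlapped between WT and val1 val2 (exact permutation p = 0.4 each). GSA1 and GSA2 are similar in sequence, so the assembly could have shared fragments between them. HEME2 with HEME1 and PORB with PORA could not be compared, since HEME1 had 1 WT value and PORA had an assigned locus in 1 library only.

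**Figure D5:**
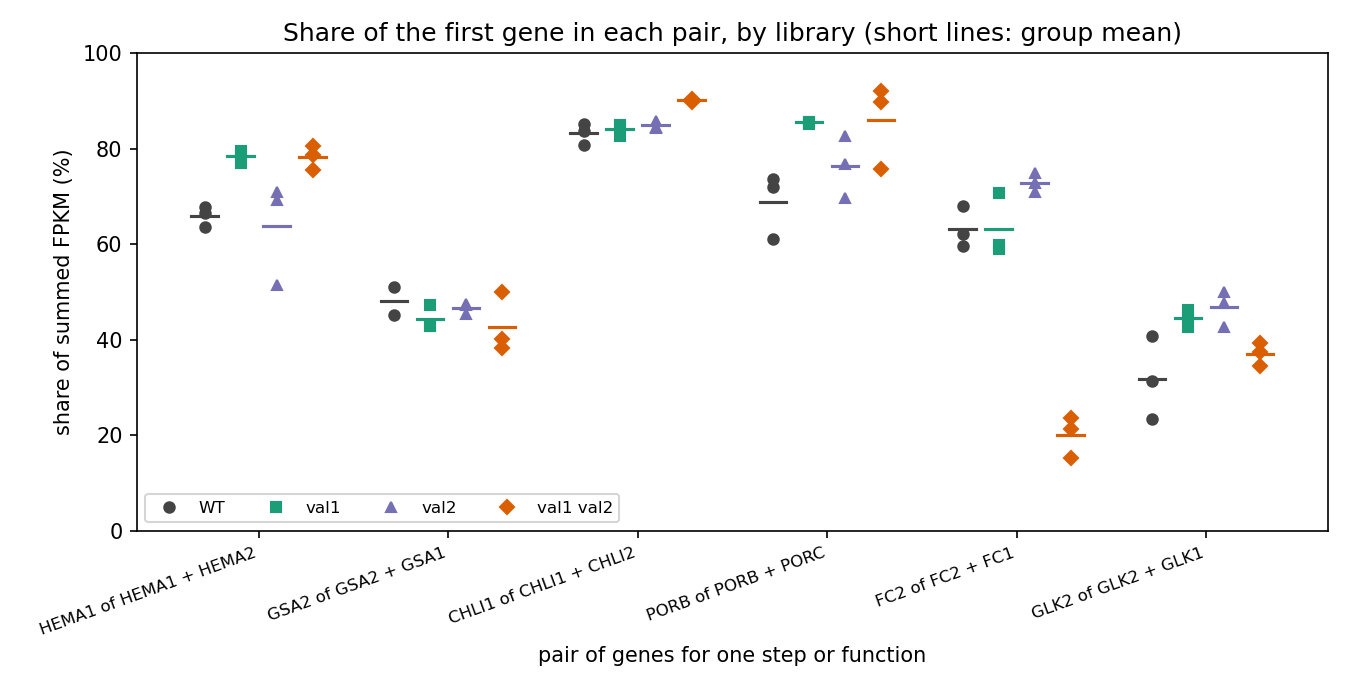
Share of the first gene in the summed FPKM of each gene pair (vertical axis, %), by library, with short lines for group means. FC2 stands at 59.7 to 68.0% in WT and at 15.2 to 23.7% in val1 val2, and the other pairs lie closer together.

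Genes around the pathway were read from further lists. Of 16 other tetrapyrrole genes 11 were in the fit, and in val1 val2 9 fell, beside 34.4% of all genes. LIL3, a light-harvesting-like protein that holds geranylgeranyl reductase at the membrane, had 27.5 ± 13.4 FPKM in val1 val2 and 106 ± 3.17 in WT (log2 change -2.01, SE 0.27, limma adjusted p = 8.56e-05). GUN1, a plastid signalling protein, had 16.2, 23.99 and 41.2 against 89.5, 89.99 and 82.9 (log2 change -1.75, SE 0.25, limma adjusted p = 0.000146). LCAA, a factor of the cyclase step, fell as well (log2 change -1.41, SE 0.24, limma adjusted p = 0.000636). HO4, a further heme oxygenase gene, had 9.06, 1.86 and 9.87 FPKM in val1 val2 and no assigned locus in the other 9 libraries; it entered the fit through its val1 val2 values alone, so its call is not counted as a result.

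Of 9 fitted genes of chlorophyll breakdown 3 rose, 2 fell and 4 were not called, beside 24.6% of all genes higher and 34.4% lower, so the share called was near that of all genes. Their median log2 change was -0.26. NYE2 and NYE1, the magnesium dechelatases that start breakdown and are known as STAY-GREEN genes, rose. NYE2 had 4.84, 3.69 and 4.28 FPKM against 1.28, 1.08 and 0.892 in WT (log2 change 1.33, SE 0.15, limma adjusted p = 2.42e-05), and NYE1 had 18.7, 12.5 and 12.6 against 8.68, 6.57 and 7.35 (log2 change 0.85, SE 0.16, limma adjusted p = 0.000858). HCAR, hydroxymethyl chlorophyll a reductase (log2 change -0.79, SE 0.14, limma adjusted p = 0.000592), and SGRL (log2 change -0.49, SE 0.15, limma adjusted p = 0.0134) fell. Among senescence markers SAG13 had 87.2, 78.6 and 28.1 FPKM in val1 val2 and no assigned locus in the other groups, SEN1 fell (log2 change -1.67, SE 0.43, limma adjusted p = 0.00628) and WRKY53 rose (log2 change 1.15, SE 0.40, limma adjusted p = 0.0295).

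Of 11 fitted light and greening regulators 8 fell and 0 rose in val1 val2. This count and the val1 val2 counts below stand beside 34.4% of all genes lower and 24.6% higher. HY5 was outside the fit for lack of WT values and was not tested. It had 43.9 and 32.4 FPKM in val1 val2 replicates 1 and 3, against 21.1 in WT replicate 1. In val1 replicates 1 and 2 it had 24.7 and 19.98, and in val2 replicates 1 and 3 it had 21.8 and 16.9. PIF5 and PIF4, phytochrome-interacting factors, fell most (log2 change -2.39, SE 0.39, limma adjusted p = 0.000344, and log2 change -2.18, SE 0.20, limma adjusted p = 5.9e-06). CGA1 and GNC, GATA factors known to promote chlorophyll synthesis, fell too: CGA1 had 1.395, 2.76 and 4.94 FPKM against 9.800, 10.2 and 19.1 in WT (log2 change -1.84, SE 0.31, limma adjusted p = 0.000514), and GNC had 1.898, 4.903 and 12.8 against 15.97, 18.4 and 25.9 (log2 change -1.74, SE 0.43, limma adjusted p = 0.00487). As tetrapyrrole genes follow the clock and the hour of harvest is not given, 10 time-of-day genes were set beside them. Of the 7 in the fit 5 were lower in val1 val2, led by TOC1 (log2 change -1.30, SE 0.21, limma adjusted p = 0.000366). The other 3, CCA1, LHY and PRR9, were too low for the fit and had higher values in val1 val2: CCA1 had 1.54, 1.22 and 0.837 FPKM there and at most 0.1799 in WT, LHY had 1.09 and 1.104 in replicates 2 and 3 and at most 0.2328 in WT, and PRR9 had 0.958, 0.622 and 0.697 and no assigned locus in WT. The summed FPKM of 8 such genes was 269 to 325 in WT and 150.2 to 183 in val1 val2, with 40.85 FPKM of GI in WT replicate 1 against 5.23 and 4.16 in the other WT libraries; their part in the result was not tested. All 11 fitted green tissue markers fell, with a median log2 change of -2.15, led by carbonic anhydrase CA1 (log2 change -3.63, SE 0.41, limma adjusted p = 2.79e-05). Of 11 root markers 8 fell and 2 rose. The 13 seed markers had no assigned locus in any WT library and entered the fit through mutant libraries alone. Their calls are therefore not counted as results, and they are given by their sums. The root markers summed to 138 to 153 FPKM in WT and 57.95 to 80.1 in val1 val2, over 11 markers with a value in every library. In val1 and val2, 0 members of the other tetrapyrrole, chlorophyll breakdown and light regulator lists were called by limma. Over all genes the shares called were 3.9% in val1 and 4.45% in val2. In the remaining lists, seed markers left aside, 3 of 11 root markers and 1 of 7 time-of-day genes were lower in val2. In each single mutant 1 senescence marker was higher and 1 lower. In either mutant 0 green tissue markers were called, also at an unadjusted p under 0.05. The first 3 lists were also counted at an unadjusted p under 0.05. The light regulators had 1 gene in val1 and 2 in val2, the breakdown genes 1 in val1 and the other tetrapyrrole genes 1 in val2. Over all genes the counts were 2997 of 17250 in val1 and 3127 of 17250 in val2.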

How the data were processed

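RNA-seq of 12 seedling libraries, 3 for each of 4 genotypes, was analysed from tables of assembled loci with FPKM values made by the authors, per the file headers in the format of Cufflinks. Among the tools, per the submitters' processing notes, were Cufflinks 2.2.1 with Cuffdiff and TopHat2 2.1.1; the genome was TAIR10. Read counts were not used here, so depth is known only through the confidence bounds deposited with each locus.

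Loci were given to protein-coding genes by position, with names and positions from RefSeq (TAIR10.1; its coordinates are not printed). A gene took a locus if it held at least 75% of the locus length that overlapped genes, weighted by the share of the gene covered. Loci less than 50% inside genes that covered less than 50% of the gene were not used. Where no gene held 75%, genes with at least 25% of the overlap, or at least 50% covered, were left missing. A gene at least 50% covered by the locus of another gene was also missing. So were 172 values of 152 genes with no locus in 1 library while the other replicates of its group reached 10 FPKM. Other genes without a locus were set to 0. FPKM was log2-transformed with a pseudocount of 1. Genes with at least 1 FPKM in 3 libraries and 2 values in each group were fitted with limma 3.58.1 in R 4.3.3 (4 group means, 12 libraries, trended prior), with Benjamini-Hochberg adjustment at 0.05 over all 17250 genes. The calling script was run on simulated data with few changed genes and noise drawn independently for each library. That run does not measure its errors where most genes are called, as in val1 val2. Shares of gene pairs used an exact two-sided permutation test in Python 3.11.15 with scipy 1.17.1. The replicates are labelled as biological, and the p-values measure the spread between these libraries.

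The genes and lists were chosen with earlier results of these data known. All 30 genes are accounted for; values in every library are given for those called at 2-fold or more in val1 val2 and for the regulators, and for some others to show a range. From other lists, up to 4 called genes with the largest changes are named. Alternatives changed the pseudocount, filter, scaling, locus assignment, samples in the fit, library weights and replicate block, or left out libraries; 4 were added after the data were seen. For replicates 2 and 3 of val1 the table names and sample titles disagree, and the titles were followed.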

Additional observations from a re-analysis of the deposited data

Results flagged for a closer look

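For 20 of the 26 fitted genes the change in val1 val2 differed from the sum of the changes in val1 and val2 in limma's interaction test, at an adjusted p under 0.05, beside 46.9% of all genes. In the chlorophyll branch the differences were -2.53 for CHLD, -2.05 for CHLI2, -1.79 for CHLG, -1.74 for PORB, -1.64 for CHLI1, -1.30 for CHLP, -1.26 for CRD1, -1.15 for CHLH and -0.87 for DVR, all on the log2 scale. Among the earlier steps they were -1.67 for HEMF1, -1.62 for HEMC, -1.48 for GSA2, -1.42 for GSA1, -1.34 for HEME2 and -1.10 for HEMB1. In the heme branch FC2 differed by -1.31 and HO1 by -1.08, while FC1 differed by 2.02 in the other direction. The regulators FLU and GLK2 differed by -1.25 and -1.14. The calls of CHLH, HEMB1 and GSA2 were lost under 14, 13 and 10 alternatives, and that of GLK2 without val1 val2 replicate 2.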

How the results depend on the processing

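Over 28 alternatives the number of pathway genes called in val1 val2 against WT ranged from 19 to 24 of those fitted (19 to 23 with 1 library left out), against val1 from 21 to 23, against val2 from 20 to 23, and for the interaction, over 27 alternatives, from 15 to 22 (15 to 21 with 1 library left out). Of 2166 alternative values for the 26 genes against WT in each mutant, 2135 stayed on the same side of the threshold, 19 lost and 12 gained a call, and 0 changed sign after a call. The count of 0 in val1 became 1 with only the compared groups (HEMA1), with library weights (FC2) and without val1 replicate 1 and val1 val2 replicate 3 (FC2), and 2 without val2 replicate 1 and val1 val2 replicates 2 and 3 (FC2 and PORB). The count of 0 in val2 became 1 with library weights (GLK1). With 1 library left out both counts ranged from 0 to 1, the 1 coming without val1 val2 replicate 3. That library enters these comparisons only through the shared spread and the set of genes fitted. Without it the log2 changes of FC2 in val1 (-0.59) and of GLK1 in val2 (-0.81) stayed the same. Over all genes, 673 calls in val1 became 374 to 1198 with 1 library left out and 1849 with library weights, and 767 calls in val2 became 294 to 1540 and 2274; with only the compared groups val2 had 1315. Without val1 replicate 1 and val1 val2 replicate 3, val2 had 1361. Upper-quartile scaling moved the all-gene median in val1 val2 from -0.14 to -0.04 and the share of lower calls from 58.3% to 52.4%. With a pseudocount of 5, the difference in log2 ratio of CHLI1 to CHLI2 between val1 val2 and WT went from 0.68 to 0.21 (exact permutation p = 0.5). Replicates of the same number in different groups shared only the number: in 18 pairs their deviations correlated by -0.05 to 0.06 over 15558 genes. With the replicate number as a block, 22 pathway genes were called in val1 val2 and 19 for the interaction, and over all genes 591, 587 and 10053 in val1, val2 and val1 val2. At this depth a gene without an assigned locus, such as PORA in 11 libraries, cannot be told from one at a low level.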
